A study of Mus musculus with 18 samples.

Results

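The effect of the AFF1-NUTM1 fusion on the transcriptome was compared between day 6 and day 14. The comparison used 12 of the 18 libraries of the study, 3 in each of 4 groups: control cells and AFF1-NUTM1 (AFFN1) cells on day 6, and the same 2 kinds of cell on day 14. All were CD45.2+ bone marrow cells of C57BL/6 mice, labelled iLS cells, sorted by FACS, and their poly(A) RNA was sequenced with a stranded kit. The labels do not say how the fusion was introduced, from which species its NUTM1 part came, or whether the 3 replicates were separate cultures or animals, so p-values measure only the spread between these libraries, which may be technical. The other 6 libraries, of cells with BRD9-NUTM1 (BN1), entered the same fit and served in 1 comparison.

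NUTM1 is normally expressed in maturing male germ cells, where its protein binds the acetyltransferases p300 and CBP and takes part in genome-wide histone acetylation. AFF1 is a scaffold of the super elongation complex, which releases paused RNA polymerase II, and it is a frequent fusion partner of KMT2A in infant B-cell leukemia. Genes of the Hoxa cluster and their cofactor Meis1 are active in stem and early progenitor cells and are switched off as B-cell progenitors mature.

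For each gene 3 values were read from 1 edgeR fit of 12567 genes. These were the log2 fold change of AFFN1 against control on day 6, the same on day 14, and the day 14 value minus the day 6 value, called the difference below. A value was called at a Benjamini-Hochberg adjusted p under 0.05 over all 12567 genes. An effect is termed kept where it was called on both days in 1 direction and the difference was not called. It is termed reversed where it was called on both days in opposite directions. It is termed lost where it was called on day 6 and not on day 14, and gained where it was called on day 14 and not on day 6, both with the difference called. A gene called on 1 day alone with no call for the difference is termed unresolved, since such a pattern does not show that the days differed. Levels are counts per 1e6 counts (CPM), scaled over the 18 libraries, and SE is the standard error of a log2 fold change.

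The days differed in more than time. In the day 6 libraries, control and AFFN1 alike, Xist was at 0.056 to 0.263 CPM, while in the day 14 libraries it was at 233 to 504 CPM and the Y-linked genes were near 0. The cells of the days were therefore of different sex, and the samples of each day are also described under a scheme of their own, so that day and source of the cells cannot be told apart. Control and AFFN1 cells of a day did not differ in this. Total counts, in 1e6, were 14.2 to 17.7 on day 6 and 18.0 to 18.4 on day 14, and Ptprc, which encodes CD45, was at 185 to 407 CPM in every library. The coefficient of variation between libraries of a group was 14.7% on day 6 and 26.2% on day 14, or 16.5% on day 14 once replicate number was entered as a block. Control 1 and AFFN1 1 of day 14 stood apart from the rest of that day. The summed level of 20 interferon-response genes was 1740 and 1760 CPM in this pair, 166 to 236 CPM in the other 4 control and AFFN1 libraries of day 14, and 1060 to 2080 CPM on day 6. On day 14 the replicate numbers paired the control and AFFN1 libraries, and values from a fit with that block are given where they change a call. The block was also applied to the BN1 libraries, whose pairing was not checked. The interferon sum was 208 to 226 CPM in the BN1 libraries of day 14, replicate 1 included. Mouse Nutm1 had at most 2 reads over the 3 libraries of any group, which checks nothing about the fusion. Aff1 was not called on either day (log2 fold changes of 0.28 and -0.03) or for the difference (-0.32, adjusted p = 0.598).

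More genes were called between AFFN1 and control on day 6 than on day 14, and most genes called for the difference had the smaller effect on day 14. On day 6, 676 genes were called (5.38% of those tested), 423 higher (3.37%) and 253 lower (2.01%) in AFFN1. On day 14, 51 genes were called (0.406%), 31 higher (0.247%) and 20 lower (0.159%). The difference was called for 183 genes (1.46%), more positive on day 14 for 91 (0.724%) and more negative for 92 (0.732%), and 165 of the 183 differed by more than 2-fold. In 155 of the 183 the effect was smaller in size on day 14. With the replicate block on day 14 the calls were 1335 on day 6 (10.6%), 172 on day 14 (1.37%) and 360 for the difference (2.86%), and 181 of the 183 were among the 360. Since the day 14 libraries varied more, the lower count on day 14 is not by itself evidence of fewer effects, and the classes below rest on the test of the difference.

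Lost effects were the largest class with a called difference, with 152 genes (1.21% of those tested), 83 of them higher and 69 lower in AFFN1 on day 6. Their median effect was 2.5 in size on day 6 and -0.26 on day 14 when read in the direction of day 6. The class rule favours a large effect on day 6 and a small or opposite one on day 14, so these medians only describe the class. The other classes were small: 17 effects were gained (0.135%), 11 kept (0.0875%) and 1 reversed (0.00796%), and in 13 genes (0.103%) the difference was called while neither day was. No effect was called on both days in 1 direction with a difference in size. A further 512 genes (4.07%) were called on day 6 alone and 22 (0.175%) on day 14 alone without a called difference. With the replicate block the classes held 285 lost, 36 gained, 54 kept, 12 reversed and 3 reduced effects, where reduced means called on both days in 1 direction and smaller on day 14. All 11 kept genes stayed kept, 142 of the 152 lost genes stayed lost, and 7 lost genes became reversed.

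**Figure D1:**
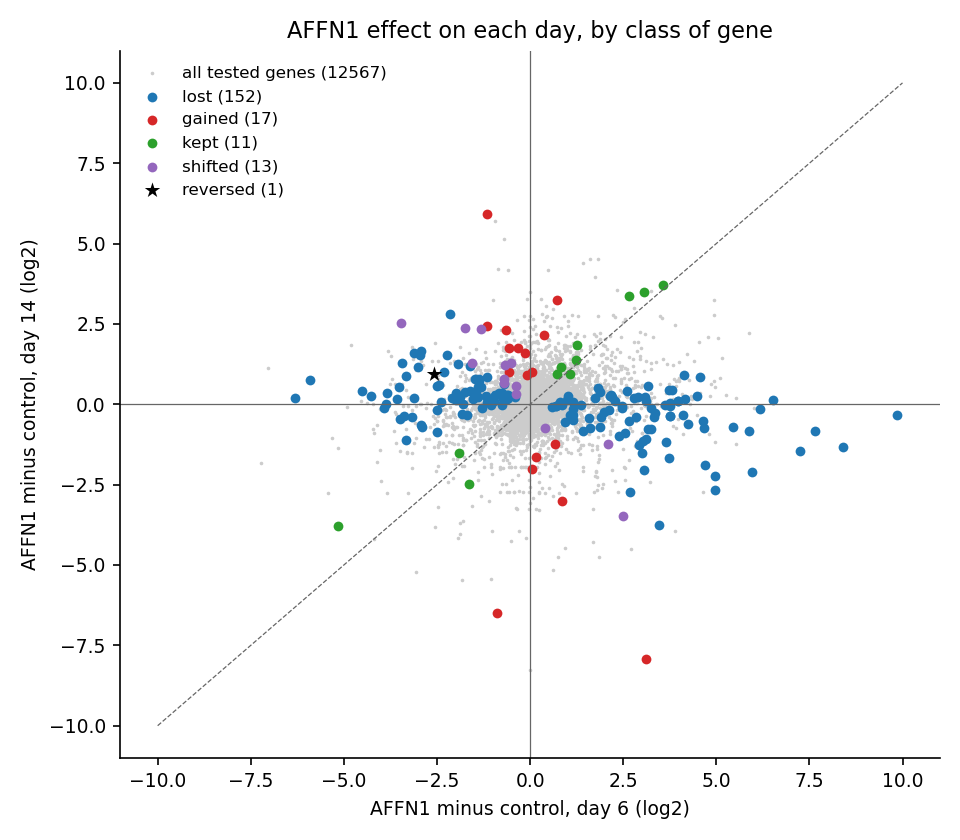
Log2 fold change of AFFN1 against control on day 6 (x axis) and on day 14 (y axis), 1 point per tested gene, coloured by class. Kept effects lie near the diagonal, lost effects spread along the x axis with a median near 0 on day 14, and Spint2 lies in the upper left.

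**Figure D2:**
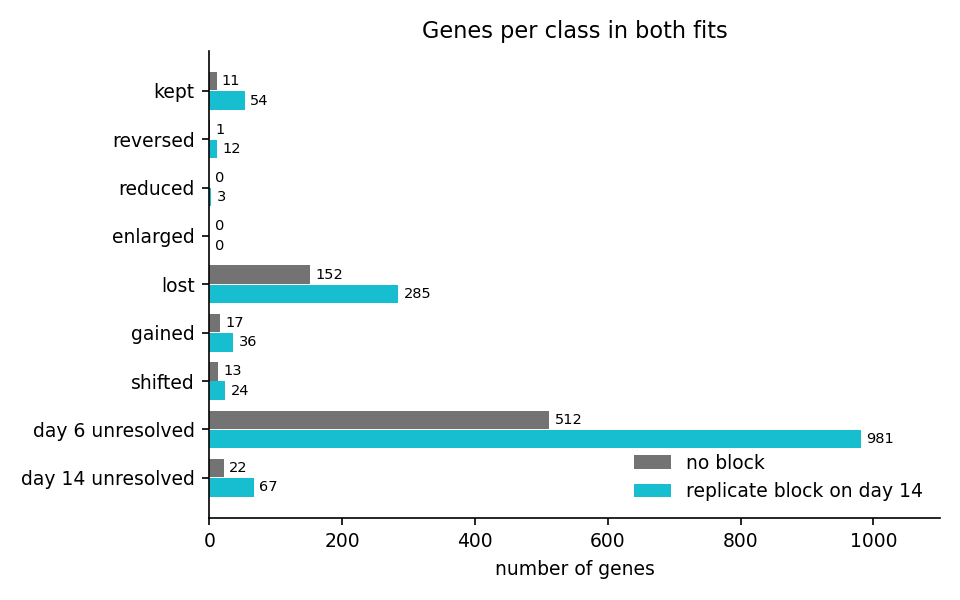
Number of genes in each class (bars start at 0), without and with the replicate block on day 14. The block raised the lost class from 152 to 285 genes and the kept class from 11 to 54.

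The difference between days can come from either kind of cell, and control cells changed about as widely as AFFN1 cells: 5512 genes were called between day 6 and day 14 in control (43.9%) and 6008 in AFFN1 (47.8%). In control 22.4% of all tested genes rose and 21.4% fell, and in AFFN1 24.4% rose and 23.5% fell. Of the 92 genes whose effect became more negative, control rose in 78 and AFFN1 fell in 38, and in 34 the change was called in control alone. Median changes in size were 2.61 in control and 1.05 in AFFN1. Of the 91 genes whose effect became more positive, AFFN1 rose in 69 and control fell in 42, and in 35 the change was called in AFFN1 alone. Their median changes were 0.79 in control and 1.56 in AFFN1. These counts share libraries with the difference and describe it.

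**Figure D3:**
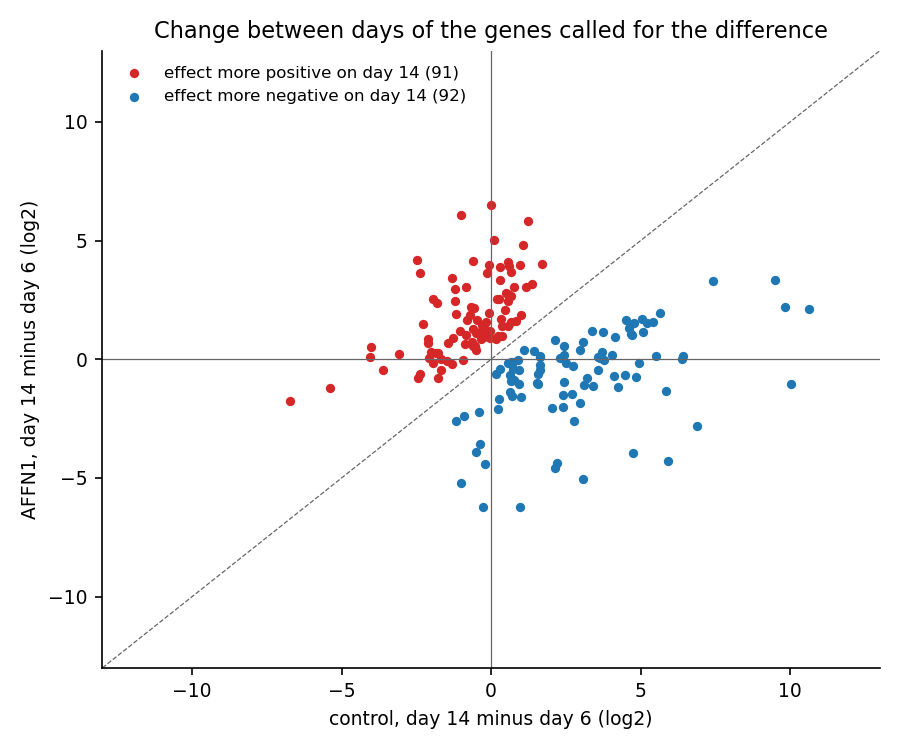
Log2 change from day 6 to day 14 in control (x axis) and in AFFN1 (y axis) for the 183 genes called for the difference. Genes whose effect became more negative lie mostly to the right, where control rose, and genes whose effect became more positive lie mostly in the upper part, where AFFN1 rose.

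The Hoxa cluster was higher in AFFN1 on day 6 and not on day 14. Hoxa genes encode homeobox transcription factors that maintain stem and progenitor programs, and all of the cluster listed here lies within mm10 chromosome 6. The promoters of Hoxa9 and Hoxa7 are shown because these 2 neighbours moved together and had the most reads of the cluster. They are RefSeq sequences of build GRCm38.p6, 250 bases before to 50 after the RefSeq start of each gene, which for Hoxa9, Hoxa7 and Crip1 lies inside the longer GENCODE span given with the levels, 5′ to 3′ on the minus strand, at chr6:52227321-52227620 for Hoxa9 and chr6:52218524-52218823 for Hoxa7. Capitals mark GGGCGG, a GC box, which was searched with CCAAT on both strands.
Hoxa9: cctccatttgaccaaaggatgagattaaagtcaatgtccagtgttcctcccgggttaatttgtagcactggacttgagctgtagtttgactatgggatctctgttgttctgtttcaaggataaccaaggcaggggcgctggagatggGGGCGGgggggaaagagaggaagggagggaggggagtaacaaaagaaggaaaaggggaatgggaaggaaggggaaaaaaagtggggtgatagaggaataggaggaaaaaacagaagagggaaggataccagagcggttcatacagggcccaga
Hoxa7: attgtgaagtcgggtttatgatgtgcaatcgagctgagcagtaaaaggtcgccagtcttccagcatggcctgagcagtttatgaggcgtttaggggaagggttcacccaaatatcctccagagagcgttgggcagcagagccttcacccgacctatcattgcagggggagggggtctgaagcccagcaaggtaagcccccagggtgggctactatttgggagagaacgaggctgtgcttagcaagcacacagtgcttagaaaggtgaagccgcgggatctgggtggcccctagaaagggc
Hoxa9 has 1 GGGCGG, at position 148, and Hoxa7 has neither motif in this window. GGGCGG was found in 35.7% of the 32851 promoters in the table, against 61.5% of 12317 promoters of tested genes and 60.1% of 188 promoters of genes called for the difference. CCAAT was found in 37.4%, 38% and 34%. The table held 142 of the 183 genes.

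Hoxa9 (ENSMUSG00000038227; mm10 chromosome 6, 52223100 to 52231089, minus strand) was at 0.336, 0.128 and 0.25 CPM in control and at 17.2, 13.7 and 13.3 CPM in AFFN1 on day 6. Its day 14 levels were 2.18, 0.244 and 0.862 CPM in control and at 0.364, 0.799 and 0.682 CPM in AFFN1. The groups were far apart on day 6 and overlapped on day 14. Its effect was 59.1-fold on day 6 (log2 fold change 5.88, SE 0.66, adjusted p = 5.19e-05) and was not called on day 14 (-0.83, SE 0.63, adjusted p = 0.694). The difference was -6.72 (SE 0.91, adjusted p = 0.00071), and it was called in every alternative that was run. Both kinds of cell moved: Hoxa9 fell by 4.57 on the log2 scale in AFFN1 and rose by 2.15 in control.

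Hoxa7 (ENSMUSG00000038236; mm10 chromosome 6, 52214491 to 52221854) was at 1.34, 0.578 and 0.35 CPM in control against 14.6, 12.7 and 11.7 CPM in AFFN1 on day 6. On day 14 the values were 7.44, 1.95 and 2.65 CPM against 0.909, 3.14 and 5.66 CPM, with overlap. Its difference was -4.42 (SE 0.90, adjusted p = 0.0195), and the call ended without control 2 (adjusted p = 0.0592), control 3 (0.0651) or AFFN1 1 of day 6 (0.0537). Hoxa7 shares exon bases with the antisense gene Hoxaas3, and the strand setting of the counting is not given in the sources used here, so reads of such partners cannot be told apart here or below. Hoxa5 had 1 read over the control libraries and 88 over the AFFN1 libraries of day 6, a ratio of 86.6 with a 95% counting interval of 15.2 to 3460. On day 14 it had 10 reads in control and 2 in AFFN1, and the difference was called (adjusted p = 0.00574).

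Of 11 Hoxa genes 5 had enough reads for the test, and 3 of the 5 were called for the difference, all more negative on day 14 (0.732% of all genes were), with a median difference of -5.02 against 0.01 over all genes. On day 6, 4 of the 5 were called higher (3.37% of all genes were), with Hoxa3 beside the 3 above, and on day 14 none was called in either direction. The filter on low counts keeps a gene with enough reads in any group, and the cluster was highest in the fusion libraries of day 6. The choice of the 5 thus favours genes high in AFFN1 on day 6, so these shares and the median only describe them. Summed over the cluster, control libraries of day 6 held 0.801 to 2.18 CPM, AFFN1 libraries of day 6 29.0 to 37.0 CPM, control libraries of day 14 2.68 to 10.0 CPM and AFFN1 libraries of day 14 1.46 to 6.75 CPM. The cluster was an earlier known result of these data. Hoxa10 was below the test's filter, with 2 and 13 reads in control and AFFN1 on day 6 and none in either group on day 14.

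Lin28b, an RNA-binding protein that blocks let-7 maturation in fetal progenitors, followed the same order (mm10 chromosome 10, 45376620 to 45486395). It was at 0.112, 0.193 and 0.25 CPM in control and 2.65, 2.05 and 1.7 CPM in AFFN1 on day 6. On day 14 it had 18 reads over the control libraries and 1 over the AFFN1 libraries. Its effect was called on day 6 (log2 fold change 3.46, adjusted p = 0.00286) and not on day 14 (adjusted p = 0.2), and the difference was called (adjusted p = 0.00449). AFFN1 fell from day 6 to day 14 (-6.24, adjusted p = 3.18e-05), while in control the change was 0.98 and was not called. Of 5 tested members of the fetal list 1, Lin28b, was called for the difference (1.46% of all genes were). Another member, Hmga2, had 151 and 505 reads in control and AFFN1 on day 6 and 3 and 0 reads on day 14, too few to read an effect.

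A second pattern among lost effects was a gene near 0 in control on day 6, higher in AFFN1 on that day, and high in control on day 14. Crip1 (ENSMUSG00000006360; mm10 chromosome 12, 113146316 to 113153879), which encodes a small LIM-domain protein, had the strongest evidence. It was at 0, 0.0642 and 0.2 CPM in control and 21.6, 22.3 and 17.0 CPM in AFFN1 on day 6, and at 161, 157 and 156 CPM in control and 67.2, 103 and 97.8 CPM in AFFN1 on day 14. The groups did not overlap on either day, and their order changed. The effect was 202-fold on day 6 (log2 fold change 7.66, SE 0.53, adjusted p = 7.69e-07), with 5 reads in all control libraries, and was not called on day 14 (-0.82, SE 0.28, adjusted p = 0.321). The difference was -8.48 (SE 0.62, adjusted p = 2.26e-06). Control rose by 10.62 and AFFN1 by 2.13 between the days. Its RefSeq promoter (GRCm38.p6, plus strand, chr12:113151762-113152061) is shown because the gene moved by more than any other of this pattern, with GGGCGG in capitals at positions 40, 219 and 225.
Crip1: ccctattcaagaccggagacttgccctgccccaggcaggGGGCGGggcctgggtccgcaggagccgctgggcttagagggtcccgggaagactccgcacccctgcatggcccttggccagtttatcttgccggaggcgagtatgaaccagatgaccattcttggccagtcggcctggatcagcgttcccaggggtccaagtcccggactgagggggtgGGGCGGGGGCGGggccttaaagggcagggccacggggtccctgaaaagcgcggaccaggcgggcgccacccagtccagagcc

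Prr13, a proline-rich protein, was at 0.056, 0.0642 and 0.0501 CPM in control and 3.24, 3.37 and 1.75 CPM in AFFN1 on day 6. The day 14 levels were 44.3, 46.4 and 46.4 CPM against 21.3, 37.5 and 24.9 CPM. The control libraries of day 6 held 3 reads in all, so that the ratio on day 6 was 49.6 with a counting interval of 16.6 to 243. The difference was -6.17 (SE 0.89, adjusted p = 0.00144). Ajuba, a LIM-domain scaffold of cell junctions, rose in control by 5.52 between the days and was level in AFFN1 (0.12, not called). Its levels on day 6 were 0.728, 0.0642 and 0.45 CPM in control against 14.0, 11.5 and 7.66 CPM in AFFN1. On day 14 they were 17.3, 26.3 and 16.1 CPM against 5.21, 17.8 and 13.0 CPM, with overlap (difference -5.40, SE 0.71, adjusted p = 0.000704).

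Scd1, a desaturase that makes monounsaturated fatty acids, was at 0.168, 0 and 0.0501 CPM in control and 2.36, 2.47 and 2.79 CPM in AFFN1 on day 6. On day 14 it was at 52.7, 97.9 and 75.0 CPM in control and 1.76, 20.6 and 13.3 CPM in AFFN1, lower in AFFN1 in each library. The effect was 4.96 on day 6 (adjusted p = 0.0157) and -2.66 on day 14 (adjusted p = 0.0601), with a difference of -7.62 (SE 1.18, adjusted p = 0.0038). With the replicate block the day 14 effect was -2.90 (adjusted p = 0.0023), and Scd1 became a reversed effect. Phf19, a Polycomb-like protein of the repressive complex PRC2, was named after its values were seen, for the same reason. It was at 0.951, 0.514 and 0.751 CPM against 7.67, 5.74 and 6.79 CPM on day 6, and 19.5, 29.0 and 27.1 CPM against 11.6, 20.8 and 11.7 CPM on day 14 (difference -3.94, adjusted p = 9.41e-05). With the block its day 14 effect was -0.82 (adjusted p = 0.0406).

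Gnb4, a G protein beta subunit, was at most at 0.15 CPM in control on day 6 and at 9.85, 10.2 and 7.66 CPM in AFFN1. Its day 14 levels were 18.2, 2.68 and 4.31 CPM in control and 2.18, 13.6 and 12.1 CPM in AFFN1, with overlap (difference -6.38, adjusted p = 0.0264). This call ended with the block (adjusted p = 0.0644) and without any 1 of control 1, 2 or 3 or AFFN1 1 or 2 of day 6 (adjusted p of 0.0661 to 0.0907). The call of Gnb4 also ended with limma voom (0.0716), without the filter on low counts (0.0589) and in the 12 control and AFFN1 libraries only (0.0655). Ttc30a1, an intraflagellar transport protein, had 0 reads in control on day 6 and was at least 121-fold higher in AFFN1 over the group, against a floor of 3 reads. Unlike the pattern above, Ttc30a1 was low in control on day 14, at a mean of 0.43 CPM. On day 14 it had 21 reads in control and 16 in AFFN1 (adjusted p of the difference = 0.022). Its call ended without any 1 of control 1, control 3, AFFN1 1 or AFFN1 2 of day 6 or control 1 of day 14 (adjusted p of 0.0502 to 0.0922).

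Across the 83 lost effects that were higher in AFFN1 on day 6, control rose between the days in 72 (22.4% of all genes did). In 30 of these 72 the change in AFFN1 was not called, in 18 AFFN1 rose too and in 24 it fell. AFFN1 fell in 35 of the 83 (23.5% of all genes did), and in 9 of the 35 the change in control was not called. The choice by a called difference favours a rise in control or a fall in AFFN1. The median effect went from 3.06 on day 6 to -0.26 on day 14, a change that the class rule favours. The libraries of control and AFFN1 did not overlap for all 83 on day 6 (31.9% of all genes did not), where the choice by a day 6 call favours this, and for 20 on day 14 (9.17% of all genes). In 8 of the 83 a day 6 group had 3 reads or fewer, so that the fitted fold is a rough one.

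In most effects lost from the lower side, AFFN1 rose between the days. Ccdc125 (ENSMUSG00000048924; mm10 chromosome 13, 100669717 to 100697240), a coiled-coil protein, was at 9.57, 5.97 and 12.6 CPM in control and 0.236, 0.263 and 0.711 CPM in AFFN1 on day 6. The day 14 levels were 10.3, 8.04 and 11.7 CPM in control and 8.31, 16.0 and 15.9 CPM in AFFN1. Groups were apart on day 6 and overlapped on day 14. The effect was 22.8-fold lower on day 6 (log2 fold change -4.51, SE 0.41, adjusted p = 5.12e-06) and 0.41 on day 14 (SE 0.31, adjusted p = 0.692), with a difference of 4.93 (SE 0.52, adjusted p = 7.9e-05). AFFN1 rose by 5.02 and the change in control was 0.10, not called.

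Cav2 (mm10 chromosome 6, 17281185 to 17289115), which encodes caveolin 2 of membrane invaginations, was at 25.3, 23.0 and 34.2 CPM in control and 2.59, 1.89 and 3.72 CPM in AFFN1 on day 6. On day 14 it was at 10.7, 7.80 and 5.04 CPM in control and 10.6, 14.9 and 17.5 CPM in AFFN1. Here control fell by 1.81 and AFFN1 rose by 2.39 (difference 4.20, SE 0.40, adjusted p = 2.88e-05). Cers4, a ceramide synthase, was at 9.79, 7.58 and 13.7 CPM against 1.00, 1.47 and 1.37 CPM on day 6, and 5.08, 3.66 and 4.84 CPM against 5.52, 11.7 and 13.2 CPM on day 14. Its groups were apart on both days, in opposite order, and the day 14 effect of 1.16 was not called (adjusted p = 0.123; difference 4.17, SE 0.44, adjusted p = 7.9e-05). Mmp13, a collagenase, reached its day 14 level by another path. It was at 200, 210 and 569 CPM in control and 18.8, 17.6 and 31.7 CPM in AFFN1 on day 6, and at 5.31 to 11.8 CPM in the control and AFFN1 libraries of day 14. Control fell by 5.40, while the change in AFFN1 was -1.20 and was not called (difference 4.20, SE 0.71, adjusted p = 0.00706). This call ended with limma voom (adjusted p = 0.0844).

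Further genes whose effect was more positive on day 14 were Rpgr, a ciliary protein encoded on chromosome X, Arhgap42, a GTPase-activating protein, and Snx7, a sorting nexin. Rpgr was at 3.02, 3.21 and 3.05 CPM against 0.118, 0.316 and 0.602 CPM on day 6 and at 2.60, 1.34 and 2.19 CPM against 4.49, 5.29 and 9.06 CPM on day 14 (difference 4.74, adjusted p = 0.00138). Its exons overlap Srpx on the same strand. Arhgap42 differed by 4.46 between the days (adjusted p = 0.00313). Snx7 went from 387 reads in control and 90 in AFFN1 on day 6 to 3 and 23 reads on day 14, a day 14 ratio of 7.76 with a counting interval of 2.34 to 40.4 (adjusted p of the difference = 0.00138). All 3 kept the call in each alternative.

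Grb7, an adaptor of receptor tyrosine kinases, and Als2cl were less secure. Grb7 was at 2.13, 1.35 and 7.46 CPM against 0.413, 0.632 and 0.383 CPM on day 6 and at 2.54, 15.2 and 8.69 CPM against 22.1, 19.6 and 41.5 CPM on day 14 (difference 4.58, adjusted p = 0.0225). Its call ended without any 1 of control 3, AFFN1 1, 2 or 3 of day 6, or control 3 or AFFN1 3 of day 14 (adjusted p of 0.0527 to 0.0867). The call of Grb7 also ended with limma voom (0.0614), without the filter on low counts (0.0536) and in the 12 control and AFFN1 libraries only (0.0904). Als2cl was at 15.6 and 13.2 CPM in control 1 and 2 of day 6 and at 80.3 CPM in control 3, against 1.42 to 2.35 CPM in AFFN1. Its day 14 levels were 1.29 to 4.57 CPM in both groups (difference 4.53, adjusted p = 0.0222). The call ended without any 1 of the 3 AFFN1 libraries of day 6, the 3 control libraries of day 14 or AFFN1 3 of day 14 (adjusted p of 0.0501 to 0.0828). With limma voom the adjusted p of Als2cl was 0.629. The call also ended without the filter on low counts (0.0534) and in the 12 control and AFFN1 libraries only (0.0712). Als2cl shares exon bases with Tmie on the opposite strand. Lef1, a transcription factor of pro-B cells and of Wnt signalling, was the 1 member of 17 B-lineage transcription factors called for the difference (1.46% of all genes were). It was at 185, 143 and 321 CPM against 94.3, 87.8 and 76.6 CPM on day 6 and at 370, 679 and 423 CPM against 570, 806 and 782 CPM on day 14 (difference 1.88, adjusted p = 0.0236). Leaving out any 1 of control 3, AFFN1 1, 2 or 3 of day 6, or control 1, control 3, AFFN1 2 or AFFN1 3 of day 14 ended this call (adjusted p of 0.0531 to 0.0807). Limma voom ended the call of Lef1 too.

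Across the 69 lost effects that were lower in AFFN1 on day 6, AFFN1 rose between the days in 55 (24.4% of all genes did). In 27 of the 55 the change in control was not called, in 16 control fell and in 12 it rose too. Control fell in 30 of the 69 (21.4% of all genes did), and in 12 of the 30 the change in AFFN1 was not called. The choice by a called difference favours a rise in AFFN1 or a fall in control. The median effect went from -1.89 to 0.25, which the class rule likewise favours. The libraries of control and AFFN1 did not overlap for all 69 on day 6 (31.9% of all genes, with the same choice) and for 24 on day 14 (9.17%), and 2 of the 69 had a day 6 group with 3 reads or fewer.

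**Figure D4:**
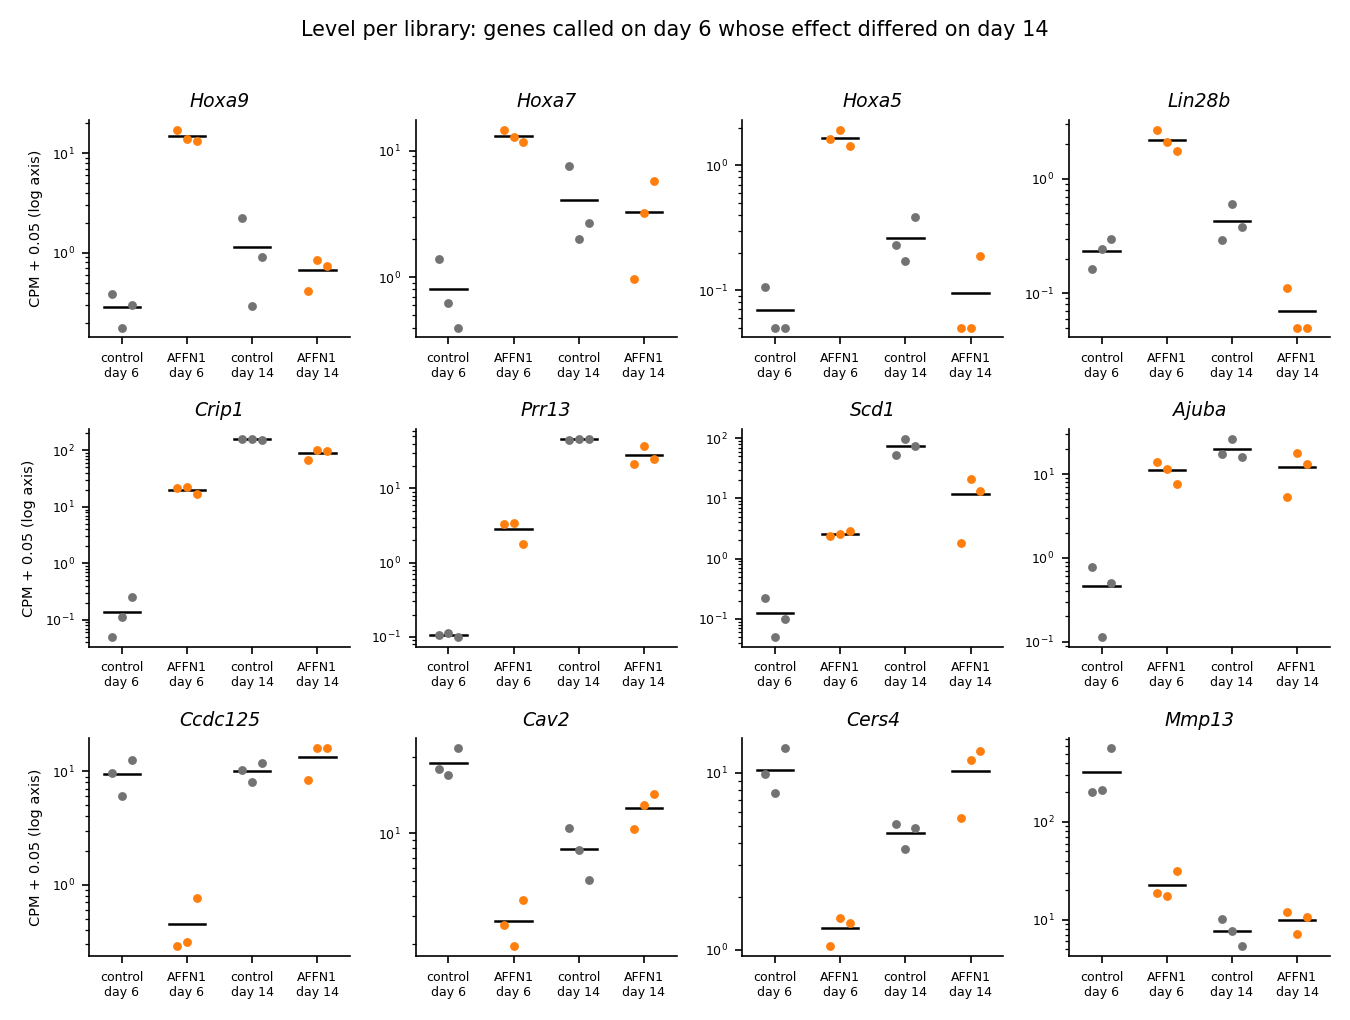
Levels of 12 lost effects in CPM + 0.05 on a log axis. Dots are the 3 libraries of control and AFFN1 on day 6 and day 14, and black lines are group means. Hoxa9, Hoxa7, Hoxa5 and Lin28b are highest in AFFN1 on day 6, Crip1, Prr13, Scd1 and Ajuba are lowest in control on day 6, and Ccdc125, Cav2, Cers4 and Mmp13 are lower in AFFN1 than in control on day 6 and not on day 14.

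Genes called for the difference had a neighbour called in the same direction within 100000 bases in 13 of 183 cases (7.1%), against 335 of 12380 genes not called (2.71%). Neighbours called in the opposite direction were found for 4 (2.19%) and 249 (2.01%) genes. The pairs outside Hoxa were Poglut2 and Bivm, Lynx1 and Ly6d, Ttc30a1 and Ttc30b, Impdh1 and Hilpda, and Plscr4 and Plod2. Poglut2, a protein O-glucosyltransferase, and Bivm, a basic protein with an immunoglobulin-like motif, lie head to head on chromosome 1 (44106546 to 44118808 and 44118957 to 44144770). Their RefSeq starts are 183 bases apart, and their promoter windows share 283 bases, so 1 window serves to show both. The Bivm window (GRCm38.p6, plus strand, chr1:44118707-44119006) holds 1 CCAAT, on the minus strand and therefore read as ATTGG, in capitals at position 141, and the start of Poglut2 lies at position 67.
Bivm: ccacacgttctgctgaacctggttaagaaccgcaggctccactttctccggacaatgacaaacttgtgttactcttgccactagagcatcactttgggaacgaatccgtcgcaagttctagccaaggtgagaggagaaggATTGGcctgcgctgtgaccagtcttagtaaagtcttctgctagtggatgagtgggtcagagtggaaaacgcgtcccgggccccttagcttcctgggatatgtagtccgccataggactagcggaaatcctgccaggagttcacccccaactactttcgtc

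Poglut2 was at 1.46, 0.642 and 0.3 CPM in control and 4.84, 4.79 and 5.64 CPM in AFFN1 on day 6, and at 22.2, 13.8 and 9.16 CPM against 0.121, 4.67 and 2.04 CPM on day 14. Bivm, named as its neighbour after its values were seen, was at 0.448, 0.257 and 0.501 CPM against 3.36, 3.58 and 3.45 CPM on day 6, and at 18.6, 10.5 and 9.22 CPM against 0.243, 5.04 and 4.09 CPM on day 14. For both genes the order of the groups was opposite on the days, without overlap, and AFFN1 1 of day 14 was the lowest library of its group. The differences were -5.39 (SE 0.97, adjusted p = 0.00899) and -5.10 (SE 0.87, adjusted p = 0.00587), and neither day 14 effect was called. Without control 3 and AFFN1 3 of day 6 together, the call of Poglut2 ended (adjusted p = 0.063), as it did in a fit of the 12 control and AFFN1 libraries only (0.0606).

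Lynx1 and Ly6d, on chromosome 15, encode small proteins of the Ly6 family, and Ly6d marks lymphoid progenitors that enter the B lineage. Lynx1 was at 2.80, 1.93 and 2.85 CPM against 21.9, 24.1 and 16.4 CPM on day 6 and at 26.8, 17.8 and 20.7 CPM against 6.31, 13.6 and 9.68 CPM on day 14 (difference -4.17, adjusted p = 1.08e-05). It was named after its values were seen, and with the block its day 14 effect of -1.17 was called (adjusted p = 0.0333), which made it reversed. Ly6d was at 33.2, 17.5 and 50.6 CPM against 102, 97.5 and 74.6 CPM on day 6 and at 163, 135 and 258 CPM against 80.3, 99.4 and 135 CPM on day 14. Its difference of -2.26 (adjusted p = 0.0292) was not called without any 1 of control 1, AFFN1 1 or AFFN1 2 of day 6, or control 3, AFFN1 1 or AFFN1 2 of day 14 (adjusted p of 0.0679 to 0.0867).

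Of the 183 genes 14 (7.65%) were on chromosome X, which held 365 of the tested genes (2.9%), and none of 6 tested Y-linked genes was among them. The days differ in sex, and its part in these 14 was not tested.

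The kept effects were those called on both days in 1 direction, and in several the size was close. Nynrin (ENSMUSG00000075592; mm10 chromosome 14, 55854010 to 55874736), a protein with a ribonuclease-like domain and a retroviral integrase-like domain, was at 0.448, 0.321 and 1.10 CPM in control and 8.43, 8.32 and 6.07 CPM in AFFN1 on day 6. Its day 14 levels were 0.484, 0.366 and 0.862 CPM in control and 8.61, 4.12 and 9.75 CPM in AFFN1. Both groups held their level between days and did not overlap on either day. The effect was 11.8-fold on day 6 (log2 fold change 3.56, SE 0.59, adjusted p = 0.00147) and 13.1-fold on day 14 (3.71, SE 0.60, adjusted p = 0.00832), and the difference was 0.15 (SE 0.81). Without control 1 and AFFN1 1 of day 14 together the day 14 call ended (adjusted p = 0.0624). Cysltr1, a receptor for cysteinyl leukotrienes, had effects of 3.05 (SE 0.44) and 3.48 (SE 0.50) while its level fell in both kinds of cell. It was at 3.13, 1.22 and 2.20 CPM against 19.5, 20.5 and 14.9 CPM on day 6 and at 0.544, 0.427 and 0.73 CPM against 6.43, 4.30 and 8.45 CPM on day 14. The difference was 0.43 (SE 0.64).

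Stag3, a cohesin subunit of meiosis, had the largest rise in level among the kept genes. It had 7 reads in control and 47 in AFFN1 on day 6, and was at 7.01, 2.13 and 2.45 CPM against 57.1, 28.2 and 34.0 CPM on day 14. Its effects were 2.65 (adjusted p = 0.0292) and 3.36 (adjusted p = 0.000849), and the difference was 0.70 (SE 0.97). The day 6 call ended without any 1 of control 1, 2 or 3 or AFFN1 1 or 2 of day 6 (adjusted p of 0.0743 to 0.116). Zfp516, a zinc finger protein, was at 6.21, 4.69 and 5.86 CPM against 15.2, 13.7 and 11.1 CPM on day 6 and at 1.09, 0.853 and 1.13 CPM against 3.94, 3.81 and 3.34 CPM on day 14 (effects 1.25 and 1.85, difference 0.60, SE 0.31). St3gal6, a sialyltransferase that helps to build selectin ligands, had the most reads of the kept genes. It was at 92.4, 66.6 and 83.1 CPM against 183, 191 and 136 CPM on day 6 and at 73.5, 85.3 and 56.1 CPM against 144, 146 and 126 CPM on day 14. Its effects were 1.07 (SE 0.18) and 0.95 (SE 0.18) and the difference was -0.12 (SE 0.25). The day 14 call ended without any 1 of control 1, control 3, AFFN1 1 or AFFN1 2 of day 14 (adjusted p of 0.0518 to 0.147), and St3gal6 shares exon bases with Dcbld2 on the opposite strand.

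Of the kept effects that were lower in AFFN1, Itgb3, the integrin beta-3 chain, was at 7.44, 7.84 and 19.2 CPM in control and 2.89, 3.37 and 4.87 CPM in AFFN1 on day 6. The day 14 levels were 9.19, 7.31 and 10.1 CPM against 2.30, 1.11 and 1.36 CPM (effects -1.63 and -2.47, difference -0.84, SE 0.56). Its day 6 call ended without any 1 of control 3, AFFN1 1 or AFFN1 2 of day 6 (adjusted p of 0.101 to 0.119), and its day 14 call without control 3 (0.0528) or AFFN1 3 (0.0707) of day 14. Vipr2, a receptor of vasoactive intestinal peptide, was at 7.11, 7.84 and 9.26 CPM against 2.30, 1.68 and 2.41 CPM on day 6 and at 11.1, 10.6 and 5.57 CPM against 3.52, 3.63 and 2.32 CPM on day 14 (effects -1.92 and -1.52, difference 0.40, SE 0.41). Its day 14 call ended without control 1 (adjusted p = 0.0697), control 2 (0.0811) or AFFN1 3 (0.137) of day 14. The other kept genes were Ccdc91, Hook1, Arhgef17 and D630039A03Rik, with effects of 1.22 and 1.37, 0.82 and 1.15, 0.71 and 0.93, and -5.17 and -3.78 on day 6 and day 14. The control and AFFN1 libraries were apart on both days for all 11, which were chosen for a call on each day (31.9% of all genes were apart on day 6 and 9.17% on day 14). With limma voom the day 14 calls of Nynrin (adjusted p = 0.166), Cysltr1 (0.214), Zfp516 (0.34), St3gal6 (0.14), Itgb3 (0.383), Vipr2 (0.162) and Ccdc91 (0.0938) ended. A difference that was not called does not show that the effects were equal.

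Gained effects were called on day 14 and not on day 6. Gldc (ENSMUSG00000024827; mm10 chromosome 19, 30098447 to 30175429), the glycine decarboxylase of the mitochondrial glycine cleavage system, had the largest. It was at 34.6, 15.9 and 31.4 CPM in control and 0.121, 0.123 and 0.0682 CPM in AFFN1 on day 14, with 1307 reads against 5, a ratio of 258 with a counting interval of 110 to 797. On day 6 it had 1 read in control and 12 in AFFN1, all 12 from AFFN1 3. The day 14 effect was called (adjusted p = 0.000849) and so was the difference (adjusted p = 0.00442), but without AFFN1 3 of day 6 the difference was no longer called (adjusted p = 1.0). Gldc was thus low on day 6 in both kinds of cell, and rose between the days in control (adjusted p = 5.15e-06). It was the 1 member of 15 tested amino acid response genes called for the difference (1.46% of all genes were).

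Ccnd1 (mm10 chromosome 7, 144929931 to 144939925), which encodes the G1 cyclin D1, was at 34.4, 248 and 242 CPM in control and 2.67, 2.28 and 0.75 CPM in AFFN1 on day 14. On day 6 it was at 6.55, 6.55 and 5.06 CPM in control and 2.06, 2.32 and 5.31 CPM in AFFN1, where the groups overlapped. The effect was 90.8-fold lower on day 14 (log2 fold change -6.50, SE 0.72, adjusted p = 0.000849) and -0.90 on day 6 (SE 0.62, adjusted p = 0.487), and the difference was -5.61 (SE 0.91, adjusted p = 0.00572). Control rose by 4.85 between the days and the change in AFFN1 was -0.75, not called. The call ended without control 3 and AFFN1 3 of day 6 together (adjusted p = 0.0573) and with limma voom (0.177). Ccnd1 shares exon bases with LTO1 on the opposite strand. Of 10 D cyclins and CDK inhibitors Ccnd1 was the 1 called for the difference (1.46% of all genes were). Cdk5rap1, an enzyme that modifies mitochondrial tRNA, was level on day 6, at 8.79, 10.8 and 9.76 CPM against 8.73, 10.6 and 11.2 CPM. On day 14 it was at 15.2, 36.6 and 38.1 CPM in control and 7.40, 5.96 and 9.13 CPM in AFFN1 (effect -2.00, difference -2.06, SE 0.37, adjusted p = 0.00645). In both Ccnd1 and Cdk5rap1 control 1 was the lowest control library of day 14.

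Syt11, a synaptotagmin of membrane traffic, was lower in AFFN1 on day 14 through a fall in AFFN1. It was at 5.43, 3.66 and 4.40 CPM against 8.14, 7.00 and 6.51 CPM on day 6 and at 4.11, 6.03 and 6.17 CPM against 2.18, 2.89 and 1.77 CPM on day 14 (difference -1.93, adjusted p = 0.00856). B3gnt3, which extends glycans on selectin ligands, was at 0 to 0.316 CPM in all control and AFFN1 libraries of day 6. Its day 14 levels were 5.92, 4.81 and 6.77 CPM in control and 0.303, 0.861 and 1.02 CPM in AFFN1 (difference -3.86, adjusted p = 0.0327). Its call ended without control 1 (0.06), AFFN1 1 (0.122) or AFFN1 2 (0.149) of day 6 or control 3 of day 14 (0.0794).

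Of the 11 gained effects that were higher in AFFN1, Slc25a53, a member of the mitochondrial carrier family, kept its call in each alternative. It was at 6.66, 6.17 and 8.51 CPM against 6.66, 6.26 and 6.51 CPM on day 6 and at 5.80, 6.83 and 4.78 CPM against 19.5, 13.0 and 20.7 CPM on day 14. The effect was 3.06-fold on day 14 (log2 fold change 1.61, SE 0.20, adjusted p = 0.000849), and the difference was 1.75 (SE 0.27, adjusted p = 0.00235). AFFN1 rose and the change in control was not called. N4bp3, a binding partner of the ubiquitin ligase NEDD4, was at 26.9, 23.8 and 32.1 CPM against 18.5, 18.8 and 18.4 CPM on day 6 and at 32.3, 38.2 and 45.0 CPM against 59.7, 78.0 and 94.6 CPM on day 14 (difference 1.58, adjusted p = 0.00116). Its day 6 effect of -0.57 had an adjusted p of 0.0506, and with the block of 0.00522, which made it reversed. Ppp1r32, a regulatory subunit of protein phosphatase 1, was at 2.06, 1.34 and 1.66 CPM against 6.79, 9.72 and 10.8 CPM on day 14 (effect 2.43, difference 3.58, adjusted p = 0.00706).

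Bace1, the beta-secretase, was at 1.68, 1.28 and 2.00 CPM against 2.77, 3.42 and 1.97 CPM on day 6 and at 0.544, 1.10 and 1.46 CPM against 11.2, 8.49 and 9.95 CPM on day 14 (effect 3.26, difference 2.55, adjusted p = 0.0217). It overlaps Gm16536 and Rnf214 on the opposite strand, and its call ended without control 3 (adjusted p = 0.0654), AFFN1 1 (0.0611) or AFFN1 3 (0.0617) of day 6. The call of Bace1 also ended with limma voom (0.0613). Fbln1, the matrix protein fibulin 1, was at 3.99, 1.04 and 1.66 CPM against 15.9, 8.61 and 8.66 CPM on day 14, and overlapped on day 6 at 6.01 to 11.6 CPM against 5.95 to 6.57 CPM. Control fell between the days and the change in AFFN1 was not called (difference 2.95, adjusted p = 0.0165, which rose to 0.054, 0.053 and 0.0559 without AFFN1 1 or AFFN1 2 of day 6 or control 3 of day 14). Nkg7, a granule membrane protein of cytotoxic cells, was at 24.9, 15.2 and 33.4 CPM against 35.7, 31.7 and 28.1 CPM on day 6 and at 7.80, 6.22 and 4.98 CPM against 29.6, 17.5 and 38.9 CPM on day 14 (difference 1.80, adjusted p = 0.0364). Leaving out any 1 of the control libraries 1 and 3 or the AFFN1 libraries of day 6, or control 2, control 3, AFFN1 1 or AFFN1 3 of day 14, ended its call (adjusted p of 0.06 to 0.109). The call of Nkg7 also ended with limma voom (0.175) and in the 12 control and AFFN1 libraries only (0.109).

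**Figure D5:**
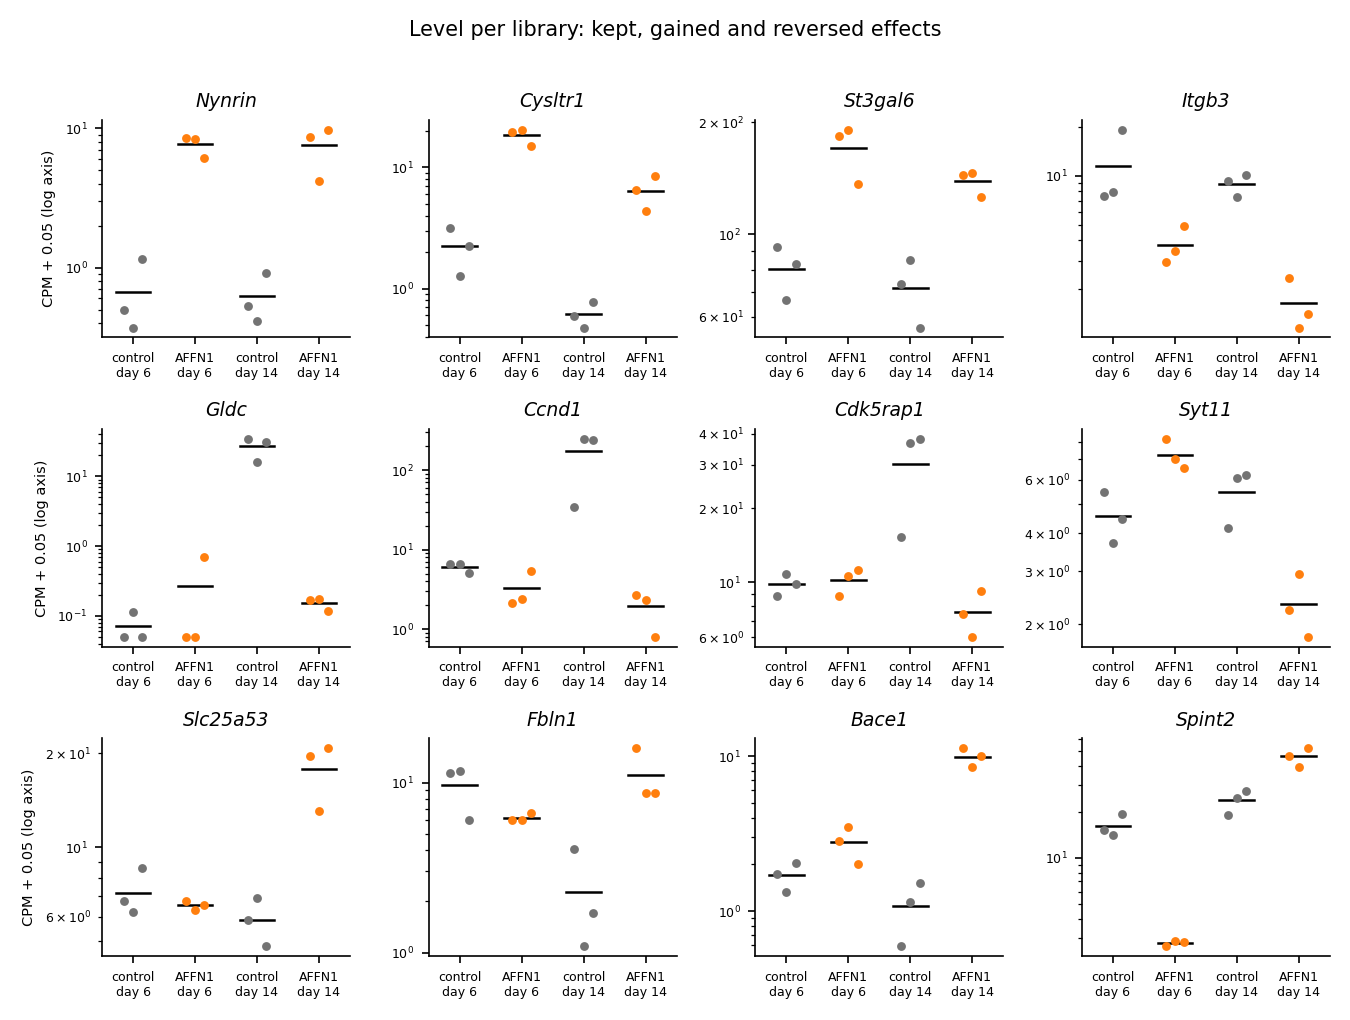
Levels of 4 kept, 7 gained and 1 reversed effect in CPM + 0.05 on a log axis, with dots for the 3 libraries of each group and black lines for means. Nynrin, Cysltr1, St3gal6 and Itgb3 show the same order of control and AFFN1 on both days, Gldc, Ccnd1, Cdk5rap1 and Syt11 are lower and Slc25a53, Fbln1 and Bace1 higher in AFFN1 on day 14, and Spint2 changes order.

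Spint2 (ENSMUSG00000074227; mm10 chromosome 7, 29256323 to 29281912), a Kunitz-type inhibitor of serine proteases on the cell surface, was the 1 reversed effect. It was at 15.2, 14.1 and 19.2 CPM in control and 2.59, 2.79 and 2.74 CPM in AFFN1 on day 6. The day 14 levels were 19.1, 24.7 and 27.4 CPM in control and 46.4, 39.4 and 52.1 CPM in AFFN1. Groups were apart on both days, in opposite order. The effect was 5.95-fold lower on day 6 (log2 fold change -2.57, SE 0.20, adjusted p = 9e-07) and 1.94-fold higher on day 14 (0.95, SE 0.17, adjusted p = 0.0201), and the difference was 3.53 (SE 0.26, adjusted p = 2.07e-06). AFFN1 rose by 4.08 and control by 0.56. Its difference was called in each alternative, while its day 14 call was not: without control 2 of day 14 the number of reversed effects was 0. In BN1 cells Spint2 was at 0.714, 0.574 and 0.284 CPM on day 6 and 25.6, 27.6 and 27.4 CPM on day 14.

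With the replicate block 12 effects were reversed. Of these, Scd1, Phf19, Lynx1 and Lmo7 went from higher to lower in AFFN1, and among those that went from lower to higher were Spint2, N4bp3, Snx7, Cask, Ripk3, Mfsd13a and Clstn1. Genes in this paragraph that are described nowhere else were named after their values were seen. Mfsd13a was at 47.5, 42.7 and 55.7 CPM against 16.9, 15.2 and 19.7 CPM on day 6 and at 65.0, 56.1 and 54.9 CPM against 80.5, 85.7 and 138 CPM on day 14 (difference 2.28, adjusted p = 0.000127). The 3 reduced effects of the blocked fit were Kdm5b, Rapgef5 and Plod2. Kdm5b, a histone H3K4 demethylase, was at 9.12, 6.55 and 8.86 CPM against 61.9, 58.7 and 46.5 CPM on day 6 and at 3.26, 4.39 and 10.2 CPM against 6.43, 9.78 and 31.4 CPM on day 14. Its blocked effects were 2.76 and 1.29 and the blocked difference was -1.47 (adjusted p = 0.0143). Plod2, a lysyl hydroxylase of collagen, was at 23.1, 30.6 and 33.6 CPM against 2.71, 3.16 and 2.85 CPM on day 6 and at 8.70, 16.0 and 17.6 CPM against 5.88, 6.52 and 7.36 CPM on day 14, lower in AFFN1 on both days without overlap (difference 2.22, adjusted p = 0.00957).

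In 13 genes the difference was called while neither day was. Cask, a membrane-associated scaffold kinase, was at 8.84, 6.87 and 9.26 CPM against 2.42, 2.74 and 2.24 CPM on day 6 and at 0.907, 0.244 and 0.332 CPM against 5.09, 0.922 and 1.84 CPM on day 14 (difference 4.14, adjusted p = 0.037). Its call ended in 9 of the fits without 1 library, those without any 1 day 6 library of control or AFFN1 or without control 2, control 3 or AFFN1 1 of day 14 (adjusted p of 0.0555 to 0.114). The call of Cask also ended with limma voom (0.141) and without the filter on low counts (0.0588). In all 13 the 2 days had effects of opposite sign, 3 positive on day 6 and 10 negative. The choice of genes with a called difference and no called day favours opposite signs.

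Most effects of day 6, in 512 genes, stayed unresolved. Meis1, the cofactor of Hox proteins, was at 3.64, 3.08 and 1.70 CPM in control and 19.5, 19.5 and 16.2 CPM in AFFN1 on day 6. Both groups were at 0.122 to 0.862 CPM on day 14 and overlapped. Its effect was 2.71 on day 6 (adjusted p = 0.00125) and -0.27 on day 14, with a difference of -2.98 that was not called (adjusted p = 0.0838) and was called with the block (0.0124). Meis1 shares exon bases with Gm16140 on the opposite strand. Flt3, a receptor tyrosine kinase of early lymphoid progenitors, was at 36.0, 32.5 and 29.6 CPM against 134, 129 and 90.3 CPM on day 6 and at 12.0, 7.86 and 23.6 CPM against 15.9, 9.04 and 26.2 CPM on day 14. Its difference of -1.61 had an adjusted p of 0.455, or 0.00298 with the block, where the 3 numbered pairs of day 14 lie close to each other. Its day 6 call of 1.85 (adjusted p = 0.0416) ended without any 1 library of day 6 or without AFFN1 1 of day 14 (adjusted p of 0.0502 to 0.145).

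Ccr7, a chemokine receptor that guides cells to lymphoid tissue, was at 9.85, 8.16 and 6.86 CPM against 29.2, 28.9 and 27.1 CPM on day 6 and at 77.3, 137 and 119 CPM against 175, 185 and 140 CPM on day 14. Groups were apart on both days, and the difference of -1.19 had an adjusted p of 0.0541, or 0.0309 with the block. Cd38, an ectoenzyme of lymphocytes, was at 1.29, 0.642 and 1.65 CPM against 18.4, 20.7 and 16.4 CPM on day 6 and at 1.03, 9.02 and 12.5 CPM against 2.85, 13.7 and 17.2 CPM on day 14 (difference -3.34, adjusted p = 0.259, or 0.007 with the block). Its day 6 call ended without control 1 (adjusted p = 0.0695), control 2 (0.0917), control 3 (0.053) or AFFN1 2 (0.053) of day 6. Itga5, the fibronectin receptor chain, was lower in AFFN1 on day 6, at 1.30, 0.79 and 2.35 CPM against 15.3, 16.1 and 45.8 CPM, and the groups overlapped on day 14 (difference 3.46, adjusted p = 0.0541, or 0.0493 with the block). The other B-lineage and growth genes on the fixed list were not called for the difference: Ebf1 (0.20), Pax5 (-0.16), Il7r (0.50), Kit (0.68) and Myc (-0.04).

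Of the 22 genes called on day 14 alone without a called difference, Slc15a2, a peptide transporter, was at 0.423, 3.23 and 2.19 CPM in control and 15.1, 9.29 and 14.4 CPM in AFFN1 on day 14, against 26.5, 26.5 and 30.1 CPM and 37.4, 39.9 and 34.7 CPM on day 6 (difference adjusted p = 0.093, or 0.0295 with the block). Its day 14 call ended without control 3 (adjusted p = 0.0908) or AFFN1 3 (0.0597) of day 14, and with limma voom (0.142). Trpc6, a calcium-permeable channel, was at 5.56, 4.81 and 8.76 CPM against 0.303, 0.553 and 0.613 CPM on day 14 and at 0.951, 0.707 and 1.25 CPM against 0.236, 0.316 and 0.219 CPM on day 6. It was lower in AFFN1 without overlap on both days, and its day 6 effect of -1.89 was not called (adjusted p = 0.141). The day 14 call of Trpc6 ended without control 3 (adjusted p = 0.076), AFFN1 1 (0.0527) or AFFN1 3 (0.0579) of day 14.

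How far effects carried over was also read between fits of each day alone, which share no library. In the fit of day 6 alone 12.7% of genes were called, and in that of day 14 alone 0.558% with the block and 0.0429%, or 5 genes, without it. The blocked fit was used only for the genes called on day 14, where the numbers pair the control and AFFN1 libraries. Day 14 values for genes called on day 6, for all genes and for the correlations came from the fit without the block. Of 1408 genes that were called on day 6 and tested on both days, 958 (68%) had the same sign on day 14, against 62.7% of all 11302 genes tested on both days. The median effect went from 0.82 on day 6 to 0.14 on day 14. Of 58 genes called on day 14 with the block, 49 (84.5%) had the same sign on day 6, with medians of 1.3 on day 14 and 0.7 on day 6. Across the 11302 genes the effects of the days correlated at 0.247 (Pearson) and 0.314 (Spearman), where genes are not independent of each other.

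Of the other gene lists, few had members called for the difference. Among 14 tested genes of later B cells 1, Ly6d, was called (1.46% of all genes were), or 2 with the block (2.86% of all genes). The median difference of the 14 was -1.17. On day 6, 5 of the 14 were called higher in AFFN1 (3.37% of all genes were). Of the 20 pro-B and pre-B genes none was called, with a median of 0.29, and with the block Igll1 was (0.62, adjusted p = 0.0433, against 0.1 without it). No call was made among of 13 tested super elongation complex genes (-0.03) and 7 tested genes of NUTM1, p300/CBP and BET proteins (-0.01), without or with the block. The remaining lists, named by topic (cell cycle, Myc and ribosome, p53, apoptosis, stress, NF-kappaB, homing, cholesterol, glycolysis, interferon, stem cell regulators, KMT2A-fusion targets and sex-linked genes), had no called member either. With the block Meis1, Flt3, Ccr7 and Itga5 of these lists were called, as given above, and so was Bcl3, an NF-kappaB cofactor (-3.05, adjusted p = 0.0377, against 0.0726 without it).

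Markers of other cells moved with the groups in part. The summed level of 18 granulocyte and monocyte genes was 86.0 to 202 CPM in control and 259 to 360 CPM in AFFN1 on day 6, and 33.6 to 168 CPM and 43.8 to 281 CPM on day 14. Most of the excess on day 6 was Ly6c2, at 5.40 to 8.56 CPM in control and 157 to 241 CPM in AFFN1, and on day 14 Ly6c2 was at 143 CPM in control 1 and 237 CPM in AFFN1 1 against 2.85 CPM or less in the other 4. The members Mpo, Elane, Ctsg and S100a9 of this list had 0 reads in control and AFFN1 on day 6. Of its 8 tested members 1 was called higher in AFFN1 on day 6 (3.37% of all genes were) and 0 lower. With the block 3 were called higher, against 810 of all 12567 genes, and 0 lower. The summed level of 9 dendritic cell genes was 33.2 to 58.3 CPM against 248 to 338 CPM on day 6 and 108 to 182 CPM against 158 to 374 CPM on day 14, led on day 6 by Ccr9 (23.3 to 45.5 CPM against 217 to 305 CPM), with Klk1 at 0. Of 3 tested dendritic genes 1 was called higher in AFFN1 on day 6 (3.37% of all genes were), or 2 with the block (810 of all 12567 genes), and 0 lower. For 18 T, NK and innate lymphoid genes the sums were 232 to 310 CPM against 292 to 373 CPM on day 6 and 176 to 255 CPM against 238 to 311 CPM on day 14, with Cd8a, Bcl11b, Gzmb and Ncr1 at 0. Of 8 tested members of this list 1 was called higher in AFFN1 on day 6, without the block (3.37% of all genes) and with it (810 of all 12567 genes), and 0 lower. Of these 8 tested members Nkg7 was called for the difference, as given above, and so was Gata3 (1.46% of all genes were called). Gata3 had 0 reads in control and 28 in AFFN1 on day 6, at least 9.19-fold higher over the group, and 30 and 27 reads on day 14 (adjusted p of the difference = 0.0115, or 0.0579 in a fit of the 12 control and AFFN1 libraries only). The sums for 15 erythroid and megakaryocyte genes were 498 to 829 CPM against 310 to 493 CPM on day 6 and 319 to 534 CPM against 182 to 451 CPM on day 14, and those for 18 stromal genes were 800 to 928 CPM against 667 to 820 CPM and 804 to 1080 CPM against 959 to 1290 CPM. No granulocyte, erythroid or stromal gene was called for the difference without or with the block. Of the dendritic list Ccr7 was called with the block alone (2.86% of all genes were called with it). For all of these lists their part in the results above was not tested. In bulk samples, fewer cells of a type and less RNA per cell cannot be told apart.

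Whether the change between days differed between the fusions was read from the change in AFFN1 minus that in BN1, in which the control libraries cancel. A call here does not show that BN1 cells did not change. This value was called for 293 genes (2.33%), 95 more positive (0.756%) and 198 more negative (1.58%), or 661 (5.26%) with the block. The block assumes that replicate numbers also pair the BN1 libraries of day 14, which was not checked. Of the 183 genes above, 51 were called here in the same direction, 11 in the opposite direction and the others not. Both comparisons hold the same AFFN1 libraries, so the choice of the 183 favours the same direction. For 83 of the 183 the BN1 effect against control was also called as changing between the days in the same direction (2.97% of all genes were called in either direction), a comparison that shares the control libraries. The 51 included Crip1 (-8.68, adjusted p = 2.4e-06), Scd1 (-8.51, adjusted p = 0.00367), Ajuba (-5.25, adjusted p = 0.00029), Prr13 (-4.31, adjusted p = 0.012), Lynx1 (-3.16, adjusted p = 7.8e-05), Cav2 (3.76, adjusted p = 5.69e-05) and Slc25a53 (1.48, adjusted p = 0.00556). Hoxa9 (-2.01, adjusted p = 0.256), Hoxa7 (-1.34, adjusted p = 0.529), Lin28b (-0.92, adjusted p = 0.771), Ccnd1 (0.35, adjusted p = 0.93) and Ccdc125 (1.90, adjusted p = 0.0856) were not called. Among the 11 called in the opposite direction was Spint2 (-1.57, adjusted p = 0.00982).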

How the data were processed

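RNA of 18 libraries was analysed, 3 in each of 6 groups (control, AFFN1 and BN1 on day 6 and day 14). The authors deposited expected counts per gene for 32285 genes. STAR, RSEM and DESeq2 were used with build mm10, per the submitters' processing notes. No source used here gives their versions, the gene annotation or the strand setting of the counts. Cells were FACS sorted and libraries made with a stranded poly(A) kit, per the labels' protocols. Positions came from GENCODE M21, which held 32235 (99.8%) of the identifiers, and 78 genes share a name.

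Expected counts were rounded to whole numbers (1.74 to 2.12% of a library's values were fractional) and genes with low counts were removed with filterByExpr, leaving 12567. Libraries were scaled by TMM and fitted as 6 groups with edgeR 4.0.16 (robust quasi-likelihood test, two-sided, Benjamini-Hochberg adjustment over all tested genes) in R 4.3.3. The script was tested on simulated data. Standard errors were taken as the log2 fold change over the square root of the F statistic. Counting intervals of read ratios are exact at 95%, cover counting error only, and use a floor of 3 reads per group. Alternatives used DESeq2 1.42.0, limma 3.58.1, other filters, fits of each day, fits without 1 library and fits with replicate number as a block.

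The labels number replicates 1 to 3. On day 14 the descriptions give libraries of 1 number the same code. Deviations from group means of control and AFFN1 libraries correlated at 0.685, 0.602 and 0.598 for equal numbers and at -0.553 to 0.0395 otherwise, so the numbers pair the control and AFFN1 libraries of day 14. The BN1 libraries, to which the block was also applied, were not checked in this way. On day 6 equal numbers correlated at 0.00303, -0.384 and -0.409 and others at -0.294 to 0.503, so they do not. Libraries differed by more than sampling noise, and the closest, AFFN1 1 and 2 of day 6, had a chi-square per degree of freedom of 3.97.

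The comparison, its gene lists (29 lists, 424 genes) and the genes to be named were chosen with earlier results of these data known. Named were the 10 called genes with the most positive and the 10 with the most negative difference, the 6 highest and 6 lowest of each class (ranked for kept genes by the smaller of both effects, otherwise by the difference) with at least 5 CPM in the highest group and no provisional symbol, 26 fixed genes, and up to 4 called members of each list. Genes with smaller changes were left out, and others are marked as chosen after their values were seen.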

Additional observations from a re-analysis of the deposited data

Results flagged for a closer look

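The test of the difference flagged 183 genes whose AFFN1 effect differed between the days, and the comparison with the other fusion flagged 293 genes whose change between days differed between AFFN1 and BN1. The named genes with the most positive differences were Snx7 (4.95), Ccdc125 (4.93), Rpgr (4.74), Grb7 (4.58), Als2cl (4.53), Arhgap42 (4.46), Mmp13 (4.20), Cav2 (4.20), Cers4 (4.17) and Cask (4.14). Those with the most negative differences were Gldc (-11.05), Ttc30a1 (-10.20), Crip1 (-8.48), Scd1 (-7.62), Hoxa9 (-6.72), Gnb4 (-6.38), Prr13 (-6.17), Ccnd1 (-5.61), Ajuba (-5.40) and Poglut2 (-5.39). For Gldc and Ttc30a1, with 1 and 0 reads in the control libraries of day 6, the fitted value depends on how such counts are handled and is no measure of size. Day and source of the cells cannot be told apart, so each of these is a difference between the day 6 and day 14 sets of libraries.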

How the results depend on the processing

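In the order difference, day 6 effect, day 14 effect, change against BN1, kept, lost, gained and reversed, the counts of 183, 676, 51, 293, 11, 152, 17 and 1 became 342, 1017, 179, 513, 46, 260, 31 and 13 with DESeq2, and 360, 1335, 172, 661, 54, 285, 36 and 12 with the replicate block on day 14. With the replicate block on both days they were 319, 1199, 116, 575, 39, 260, 24 and 5. At an adjusted p under 0.01 they were 89, 316, 19, 143, 4, 77, 5 and 0. Effects fitted on each day's 9 libraries gave 1527 calls on day 6 and 10 on day 14, with 2 kept, 5 gained and 0 reversed effects. Limma voom with 1 weight per day, chosen after seeing the data, gave 1686 and 16 calls with 2 kept, 7 gained and 3 reversed effects. Without the filter 3 effects were reversed, and in the 12 control and AFFN1 libraries alone 9 were gained. Leaving out control 1 and AFFN1 1 of day 14 together gave 1062 calls on day 6, 17 kept and 6 reversed effects, and leaving out control 3 and AFFN1 3 of day 6 gave 115 differences and 7 gained effects.

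In fits without 1 library the difference was called for 110 to 214 genes, the day 6 effect for 327 to 809, the day 14 effect for 26 to 70 and the change against BN1 for 183 to 355, with 7 to 18 kept, 96 to 174 lost, 9 to 19 gained and 0 to 6 reversed effects. The count of differences fell to 110 without AFFN1 1 and 117 without AFFN1 2 of day 6. Day 6 calls fell to 333, 327 and 379 without AFFN1 1, AFFN1 2 or control 2 of day 6, and day 14 calls to 26 and 33 without control 3 or AFFN1 3 of day 14. With the replicate block and without 1 library the ranges were 199 to 375, 666 to 1465, 47 to 233 and 407 to 763, with 15 to 69 kept, 156 to 268 lost, 12 to 48 gained and 3 to 15 reversed effects. Of 44 named genes called for the difference, 23 kept the call in each fit without 1 library, and none changed sign. Genes with a few reads in a group limit the folds given as ratios.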
